A study of Mus musculus with 9 samples.

Results

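Expression of 52 cell cycle and mitosis genes was described in mouse liver. The genes were chosen by name from the known machinery of the cell cycle, with earlier results of these data known. All 52 genes were found among the 16755 genes of the deposited table. They fall into 9 roles, from the cyclins that act in G1 to the proteins that divide the cytoplasm in cytokinesis. The cell cycle is driven by cyclin-dependent kinases (CDK), each switched on by a cyclin that is made and destroyed in turn. D cyclins with Cdk4 or Cdk6 and E cyclins with Cdk2 carry a cell through G1 into S phase, in which MCM helicases, Pcna and ribonucleotide reductase serve DNA synthesis. Cyclin A and the B cyclins with Cdk1 then start mitosis, in which kinetochores, motor proteins and the spindle checkpoint distribute the chromosomes. Hepatocytes of the adult liver are mostly quiescent, and mRNAs of the mitotic genes are mostly made from late S phase to mitosis.

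The samples were from 9 mice in 3 groups of 3, all of the C57BL/6 strain by their labels (C57BL/6J background in the methods of the study) and with both alleles of Scd2 floxed (Scd2f/f), the controls included. Scd2 encodes stearoyl-CoA desaturase 2, which puts a double bond into saturated fatty acids. The first group was Scd2f/f liver without treatment, called control here. The second was tumor-adjacent liver (TAL) of Scd2f/f mice injected with the liver carcinogen diethyl nitrosamine (DEN, 10 mg/kg) when 2 weeks old and given a Western alcohol diet (WAD) from the age of 6 weeks, and is called Scd2f/f TAL. The third, called CC TAL here, was TAL of Scd2f/f;CC mice after the same DEN + WAD. CC stands for a Cre recombinase under the Col1a1 promoter, so that Scd2 is deleted in cells that express Col1a1, such as hepatic stellate cells (HSC) and portal fibroblasts, and is kept in other liver cells. The labels give 4 months of WAD and the methods of the study a longer time. The labels call the tissue liver, and the study names it tumor-adjacent in one place and non-tumor in another. One label field of the control mice repeats the DEN + WAD text, and their treatment label is untreated.

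For each gene, the authors' table holds 1 mean per group, in upper-quartile normalized counts with 3 significant digits. Per-mouse values were not used here. The group means alone give no spread between mice and allow no test, and the authors' own p-values were not used. Whether a difference is larger than the spread between mice is therefore not stated. A gene is counted as higher or lower when 2 group means differ by at least 2-fold. The mean of Scd2f/f TAL enters the comparison with control and that with CC TAL, so an error in it moves a gene in opposite directions in these comparisons. In bulk tissue, fewer cells of a type and less RNA per cell cannot be told apart. Scd2 itself (chr19:44293674-44306864, GRCm38) had a mean of 2.46 in control, 6.47 in Scd2f/f TAL and 1.87 in CC TAL.

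Genes of mitosis had higher means in Scd2f/f TAL than in control, and lower means in CC TAL than in Scd2f/f TAL. Of the 52 genes, 29 were at least 2-fold higher in Scd2f/f TAL than in control, or 55.8%, whereas 9.37% of all genes in the table were. At least 2-fold lower were 3 genes, Ccne1, Ccne2 and Rrm2, or 5.77%, close to the 4.69% of all genes. Between CC TAL and Scd2f/f TAL, 9 of the 52 genes were at least 2-fold lower, or 17.3%, beside 4.07% of all genes. These were Ccne1, Ccnb1, Ccnb2, Bub1, Cenpf, Prc1, Racgap1, Foxm1 and Mybl1. None of the 52 was at least 2-fold higher in CC TAL than in Scd2f/f TAL, a direction that held 1.82% of all genes. Against control, CC TAL had 18 of the 52 genes at least 2-fold higher, or 34.6%, beside 6.41% of all genes. It had 3 at least 2-fold lower, again Ccne1, Ccne2 and Rrm2, beside 4.64% of all genes.

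The median log2 ratio of the 52 genes was 1.33 for Scd2f/f TAL over control, where the median of all genes was 0.04. For CC TAL over Scd2f/f TAL it was -0.42, beside 0.00 for all genes. For CC TAL over control it was 0.76, beside 0.05. The 28 genes of the 5 mitotic roles (G2/M regulators, spindle checkpoint, chromosomal passenger complex, kinetochore and spindle, cytokinesis) had medians of 1.78, -0.76 and 1.01 in the same order. Of these 28, all but Cdc25b had a higher mean in Scd2f/f TAL than in control, and all 28 had a lower mean in CC TAL than in Scd2f/f TAL, whatever the size of the difference. The 10 genes of DNA replication had medians of 0.40, 0.07 and 0.47, and the 8 genes of G1 had medians of -0.03, -0.13 and -0.25.

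Many of the mitotic genes had low means, and among genes with low means more of the table passed 2-fold. The mean over the 3 groups was under 1 for 26 of the 52 genes, and for 22 of the 28 mitotic ones. Of the 26 low genes, 21 were at least 2-fold higher in Scd2f/f TAL than in control, or 80.8%, beside 16.4% of all 4971 genes with such low means. In CC TAL against Scd2f/f TAL, 8 of them were at least 2-fold lower, or 30.8%, beside 10.1%. Of the 26 members at a mean of 1 or more, 8 were at least 2-fold higher in Scd2f/f TAL than in control, or 30.8%, beside 6.4% of all 11784 genes of that level. Only Cenpf of these 26 was at least 2-fold lower in CC TAL than in Scd2f/f TAL, or 3.85%, beside 1.54%. In CC TAL against control, 12 of the 26 low genes were at least 2-fold higher, or 46.2%, beside 10.9%, and 6 of the other 26, or 23.1%, beside 4.51%. Adding a pseudocount of 1 to each mean, which shrinks the ratios of low means, left 7 of the 52 genes at least 2-fold higher in Scd2f/f TAL than in control, or 13.5%, beside 2.82% of all genes. It left 0 at least 2-fold lower in CC TAL than in Scd2f/f TAL, beside 0.507%. At least 2-fold higher in CC TAL than in control was 1, or 1.92%, beside 1.58%.

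**Figure D1:**
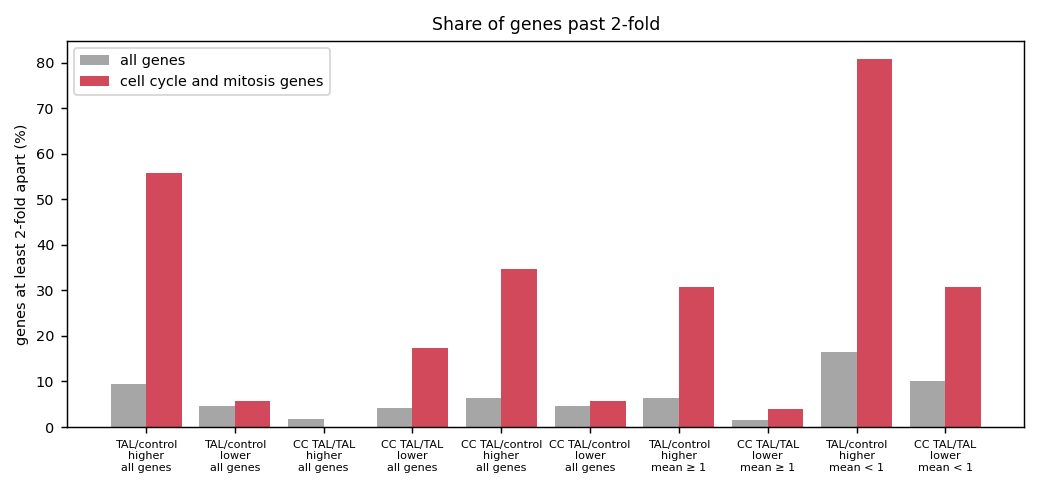
Share of genes (%, from 0) whose group means were at least 2-fold apart, for the 52 cell cycle and mitosis genes (red) and all genes (gray), by comparison, direction and mean over the 3 groups. The red bar was above the gray one for genes higher in Scd2f/f TAL than in control, 55.8% beside 9.37%. There was no red bar for genes higher in CC TAL than in Scd2f/f TAL, where the gray bar was at 1.82%.

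The markers used to count dividing cells were highest in Scd2f/f TAL. Mki67, which encodes the Ki-67 protein on mitotic chromosomes (chr7:135689784-135716361), had a mean of 1.41 in control, 8.32 in Scd2f/f TAL and 4.86 in CC TAL. It was 5.90-fold higher in Scd2f/f TAL than in control, and 1.71-fold lower in CC TAL than in Scd2f/f TAL. Top2a, the topoisomerase that untangles replicated DNA (chr11:98992943-99024189), had means of 0.963, 3.88 and 2.33 in the same order. Both genes thus had a mean in CC TAL that lay between the other means, and both were more than 2-fold above control there, by log2 ratios of 1.79 and 1.27.

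Regulators of the entry into mitosis followed the same order of groups, apart from the phosphatase gene Cdc25b. Cyclin A2 (Ccna2), active in S and G2, had a mean of 0.359 in control, 1.62 in Scd2f/f TAL and 0.832 in CC TAL. Cyclin B1 (Ccnb1), which activates Cdk1 at the onset of mitosis, had means of 0.178, 0.81 and 0.296. Cyclin B2 (Ccnb2), its partner in the family, had means of 0.141, 0.911 and 0.295, so that it was 6.46-fold higher in Scd2f/f TAL than in control and 3.09-fold lower in CC TAL than in Scd2f/f TAL. This was the lowest ratio of CC TAL to Scd2f/f TAL among the 52 genes, a log2 ratio of -1.63. The kinase they activate, Cdk1, had means of 0.453, 1.39 and 0.768. Polo-like kinase 1 (Plk1), which acts at centrosomes and kinetochores, was at 0.0804, 0.522 and 0.29. In control its mean was near the low end of the table, with 2.38% of genes lower, so its 6.49-fold ratio to control rests on a very low value. Aurora kinase A (Aurka), the centrosome kinase, differed less, at 0.543, 0.884 and 0.698. The phosphatases that remove the inhibitory phosphates from Cdk1 showed small differences or very low means. Cdc25b was at 0.553, 0.55 and 0.496, and Cdc25c at 0.063, 0.101 and 0.0834. In all, 5 of these 8 genes were at least 2-fold higher in Scd2f/f TAL than in control, and only Ccnb1 and Ccnb2 were at least 2-fold lower in CC TAL than in Scd2f/f TAL. All 8 had means over the 3 groups under 1. The counts of this role and of the roles below are to be read beside 9.37% and 4.07% of all genes. Among genes with means under 1 these shares were 16.4% and 10.1%.

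**Figure D2:**
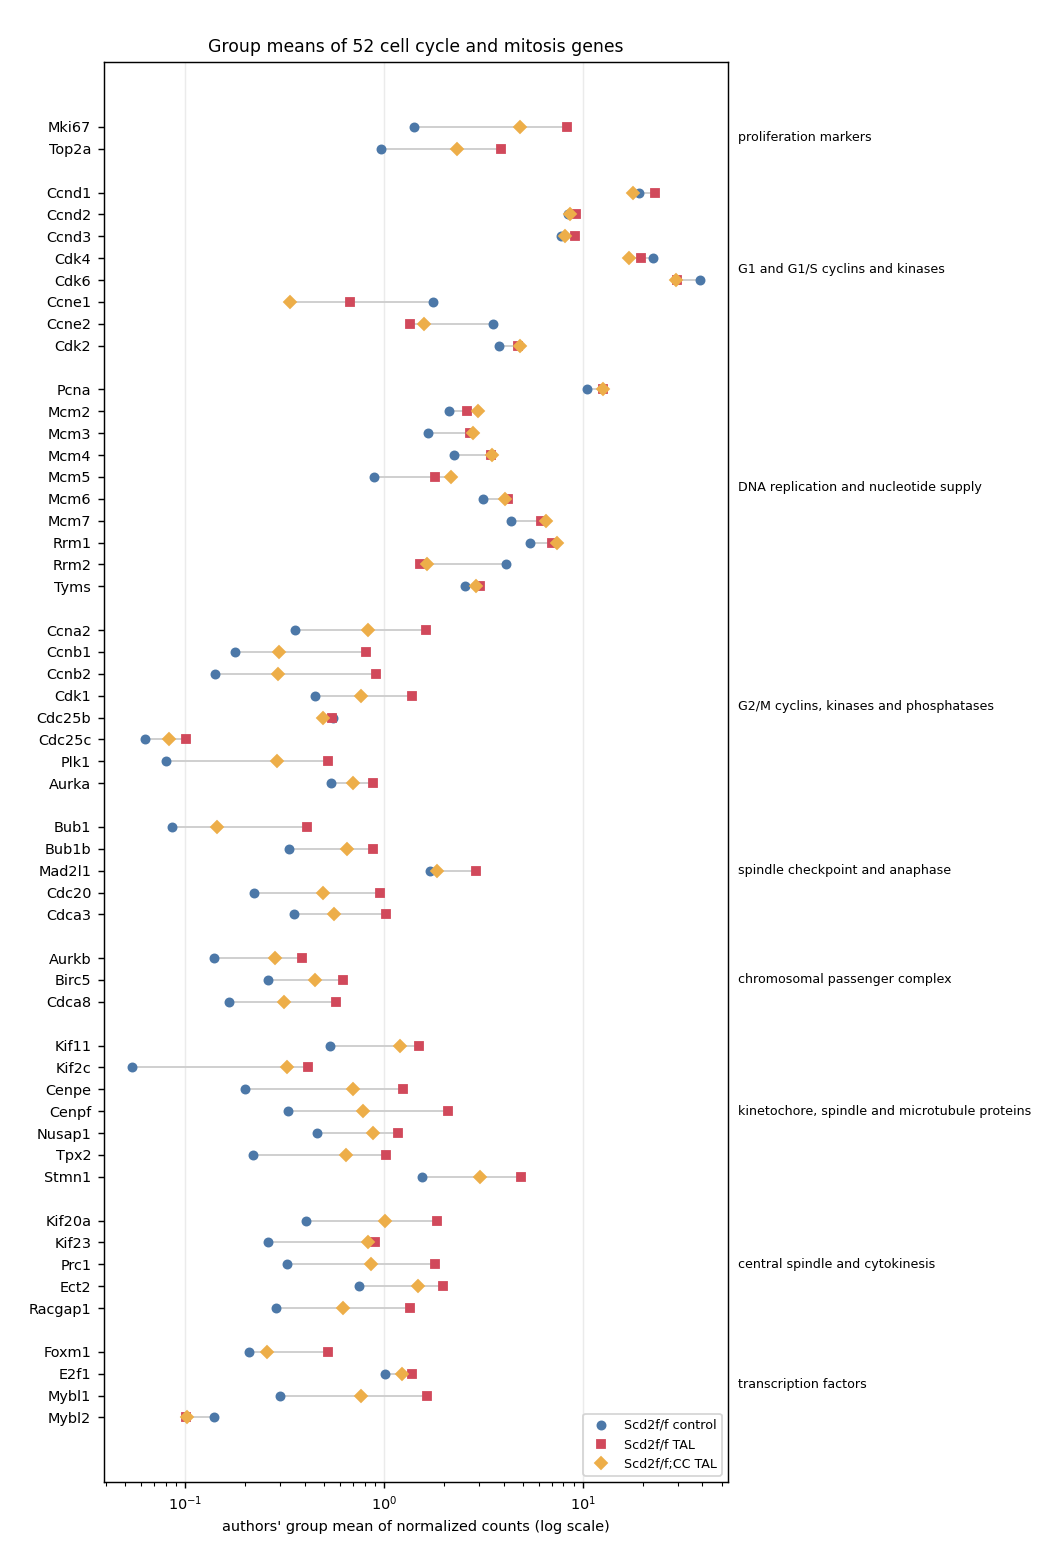
Group means of the 52 genes, by role, in the authors' normalized counts on a log axis, with 1 point per group (circle, Scd2f/f control; square, Scd2f/f TAL; diamond, CC TAL) and no error bars, since no values of single mice were used. In the mitotic roles the diamond mostly lay between circle and square, as for Ccnb2 at 0.141, 0.911 and 0.295, and in replication the square and diamond lay close together.

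The spindle checkpoint holds back anaphase until every chromosome is attached. Its kinase Bub1 had a mean of 0.086 in control, 0.413 in Scd2f/f TAL and 0.145 in CC TAL, a 2.85-fold lower mean in CC TAL than in Scd2f/f TAL. Bub1b, which encodes the checkpoint protein BubR1, was at 0.334, 0.879 and 0.651. Mad2l1, which encodes the Mad2 inhibitor of anaphase, was at 1.70, 2.92 and 1.86. With a ratio of 1.72 to control it did not reach 2-fold, and its mean in CC TAL was close to that of control, by a log2 ratio of 0.13. Cdc20, which activates the anaphase-promoting complex once the checkpoint is satisfied, was at 0.223, 0.959 and 0.492. Cdca3, a protein of mitotic entry that is destroyed in G1, was at 0.354, 1.03 and 0.56. In Scd2f/f TAL, 4 of the 5 were thus at least 2-fold above control, while Bub1 alone was at least 2-fold lower in CC TAL than in Scd2f/f TAL. The mean over the 3 groups was under 1 for 4 of the 5.

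The chromosomal passenger complex corrects wrong attachments of chromosomes and later guides cytokinesis. Its kinase Aurkb had means of 0.14, 0.387 and 0.285 in control, Scd2f/f TAL and CC TAL. Birc5, which encodes survivin, was at 0.262, 0.624 and 0.449. Cdca8, which encodes borealin, was at 0.166, 0.573 and 0.315. All 3 were at least 2-fold higher in Scd2f/f TAL than in control, and none was at least 2-fold lower in CC TAL than in Scd2f/f TAL, where the log2 ratios ran from -0.86 to -0.44. The mean over the 3 groups was under 1 for all 3.

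Proteins of the kinetochore and the spindle had the highest median of the mitotic roles against control, 2.21 on the log2 scale, and all 7 were at least 2-fold higher in Scd2f/f TAL. Cenpf, a large protein of the outer kinetochore (chr1), had a mean of 0.33 in control, 2.10 in Scd2f/f TAL and 0.782 in CC TAL, so that it was 6.36-fold higher and then 2.69-fold lower. Cenpe, the kinetochore motor that moves chromosomes to the spindle equator, was at 0.20, 1.25 and 0.698. Both lay between the other groups in CC TAL. The motor Kif11, which separates the spindle poles, was at 0.536, 1.5 and 1.21. Kif2c, which takes microtubules apart at centromeres, had means of 0.0544, 0.416 and 0.325. Its ratio of 7.65 to control was the highest of the 52 genes, yet only 1.17% of genes had a lower mean in control than its 0.0544. Tpx2, which builds spindles and activates Aurora A, was at 0.22, 1.02 and 0.648. Nusap1, which bundles spindle microtubules, was at 0.463, 1.18 and 0.883. Stmn1 (stathmin), which destabilizes microtubules and is also expressed outside mitosis, was at 1.56, 4.89 and 3.04. Cenpf alone of the 7 was at least 2-fold lower in CC TAL than in Scd2f/f TAL, and for Kif11 and Kif2c the log2 ratios were -0.31 and -0.36. The mean over the 3 groups was under 1 for 4 of the 7.

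The central spindle forms between the separating chromosomes and places the cleavage furrow. Prc1, which crosslinks its microtubules, had a mean of 0.325 in control, 1.81 in Scd2f/f TAL and 0.861 in CC TAL. Racgap1, a subunit of centralspindlin, was at 0.286, 1.35 and 0.626. These were the genes of this role that were at least 2-fold lower in CC TAL than in Scd2f/f TAL, by 2.10-fold for Prc1 and 2.16-fold for Racgap1. Kif23, the motor subunit of the same centralspindlin complex, was at 0.262, 0.898 and 0.835. The means of these partners thus stood side by side in Scd2f/f TAL over control (log2 ratios of 2.24 for Racgap1 and 1.78 for Kif23) and apart in CC TAL over Scd2f/f TAL (-1.11 and -0.10), a difference between genes that could not be tested. Kif20a, a motor of the central spindle, was at 0.407, 1.84 and 1.01. Ect2, which activates RhoA at the furrow, was at 0.746, 1.99 and 1.48. All 5 genes of this role were at least 2-fold higher in Scd2f/f TAL than in control, and 3 of the 5 had a mean over the 3 groups under 1.

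Among transcription factors of the cell cycle, Foxm1 and Mybl1 were higher in Scd2f/f TAL than in control and lower in CC TAL than in Scd2f/f TAL, each by at least 2-fold. Foxm1 activates genes of G2 and mitosis and had a mean of 0.211 in control, 0.525 in Scd2f/f TAL and 0.259 in CC TAL, the last close to control by a log2 ratio of 0.30. Mybl1 encodes A-Myb and was at 0.301, 1.64 and 0.77. Its relative Mybl2 encodes B-Myb, a partner of the MuvB complex at mitotic genes. Mybl2 went the other way and was near the low end of the table, with means of 0.14, 0.101 and 0.102. E2f1, which activates genes of S phase, differed little between groups, at 1.01, 1.39 and 1.23. The mean over the 3 groups was under 1 for 3 of the 4, Foxm1 and Mybl1 among them. In CC TAL against Scd2f/f TAL, these genes passed the limit narrowly, at 2.03-fold lower for Foxm1 and 2.13-fold for Mybl1.

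**Figure D3:**
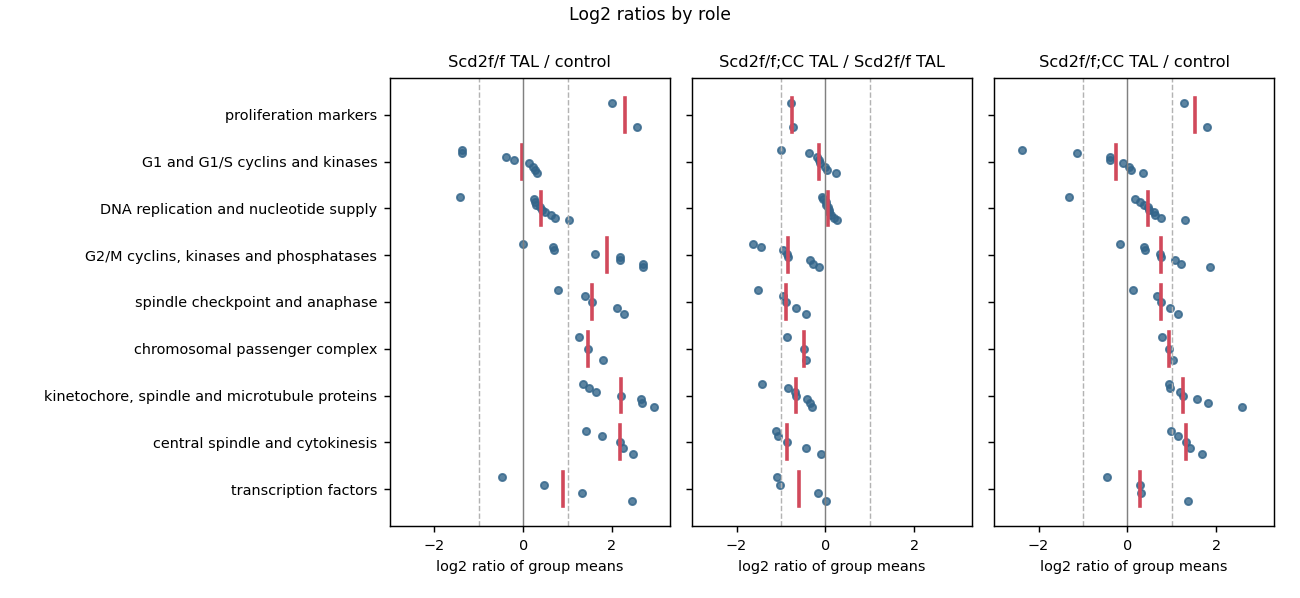
Log2 ratios of group means for the 52 genes by role (rows), in the 3 comparisons (panels), with 1 point per gene, a red bar at the median of the role and dashed lines at 2-fold. Medians of the mitotic roles lay between 1.47 and 2.21 for Scd2f/f TAL over control and between -0.88 and -0.47 for CC TAL over Scd2f/f TAL, while G1 and replication lay near 0 in the latter.

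Genes of DNA synthesis showed smaller differences from control, and next to none between the genotypes. Among the MCM subunits of the replicative helicase, Mcm5 was the only one to reach 2-fold, with a mean of 0.89 in control, 1.81 in Scd2f/f TAL and 2.17 in CC TAL. Mcm2 was at 2.13, 2.62 and 2.99, and Mcm3 at 1.66, 2.72 and 2.82. Mcm4 was at 2.25, 3.45 and 3.48. Mcm6 was at 3.14, 4.22 and 4.08, and Mcm7 at 4.35, 6.16 and 6.56. The 6 subunits thus were all higher in Scd2f/f TAL than in control, by log2 ratios from 0.30 to 1.02. Between CC TAL and Scd2f/f TAL their log2 ratios ran from -0.05 to 0.26. Pcna, the sliding clamp of the DNA polymerases, was at 10.5, 12.6 and 12.7, and Tyms, which makes thymidylate, at 2.57, 3.04 and 2.90.

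The subunits of ribonucleotide reductase, which makes deoxynucleotides, went in opposite directions. Rrm1, the large and more constant subunit, had a mean of 5.44 in control, 7.04 in Scd2f/f TAL and 7.45 in CC TAL. Rrm2, the subunit made mainly in S phase, was at 4.09, 1.52 and 1.65, or 2.69-fold lower in Scd2f/f TAL than in control. It was the only replication gene of the 10 with a lower mean in Scd2f/f TAL than in control.

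The E cyclins were lower in TAL of both genotypes than in control. Ccne1 had a mean of 1.76 in control, 0.678 in Scd2f/f TAL and 0.337 in CC TAL, and was the only G1 gene at least 2-fold lower in CC TAL than in Scd2f/f TAL. Ccne2 was at 3.53, 1.35 and 1.60. Their kinase Cdk2 was at 3.81, 4.71 and 4.84, so it did not share their difference. With Rrm2, these cyclins were the members at least 2-fold below control in TAL of both genotypes. These 3 were 5.77% of the 52 genes, close to the 4.69% of all genes in Scd2f/f TAL and the 4.64% in CC TAL. All 3 are known to be made at the passage from G1 to S phase, as are the MCM genes, whose means were higher in TAL.

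D cyclins and their kinases differed little between groups. Ccnd1 had means of 19.2, 23.1 and 17.9 in control, Scd2f/f TAL and CC TAL. Ccnd2 was at 8.44, 9.29 and 8.58, and Ccnd3 at 7.78, 9.09 and 8.18. Cdk4 was at 22.5, 19.6 and 17.1, and Cdk6 at 38.7, 29.7 and 29.4. None of the 5 differed by 2-fold in any comparison, and the highest absolute log2 ratio among them was 0.40, below control, for Cdk4 and Cdk6 in CC TAL.

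To compare levels between genes, each mean was divided by the length of the gene's merged exons, which overstates the length of genes with many isoforms. On this per-kb scale, levels in Scd2f/f TAL were 6.03 for Cdk4, 5.25 for Pcna, 4.91 for Ccnd1 and 2.12 for Cdk6. Stmn1 had the level of 2.54, well above Mki67 at 0.827, and Ccnb2 at 0.595 was above Ccnb1 at 0.192. Without spread between mice, whether neighbours in this order differ cannot be said.

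Some values are less certain because of how reads were assigned. Exons of 20 of the 52 genes overlap exons of another gene in GENCODE M21, mostly on the other strand, and the library kit does not mark strand. Among these are Ccna2 with Exosc9, Ccne2 with Ints8, Cdc20 with Elovl1, Kif20a with Cdc23 and Prc1 with Rccd1. Copies named as pseudogenes of Ccnb1, Ccnb2, Ccnd3, Pcna and Tyms are annotated as well, and reads shared with a near-identical copy may be split.

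Other cell cycle genes, outside the 52, were described in 7 lists, whose counts are to be read beside 9.37% of all genes at least 2-fold higher in Scd2f/f TAL than in control and 4.07% at least 2-fold lower in CC TAL than in Scd2f/f TAL. For genes with means under 1 these shares were 16.4% and 10.1%. For mitotic kinesins and cytokinesis, 13 of the 15 genes found, or 86.7%, were at least 2-fold higher in Scd2f/f TAL than in control (median log2 ratio 1.51). At least 2-fold lower in CC TAL than in Scd2f/f TAL were 7, or 46.7% (median -0.91), and 14 of the 15 had means under 1. Kif20b, a motor gene and the only one of these with a mean above 1, was at 0.603, 1.72 and 0.975. For kinetochore and centromere genes, 10 of 18 were at least 2-fold higher, or 55.6% (median 1.16), and 3 at least 2-fold lower, or 16.7% (median -0.26), with 15 of the 18 at means under 1. The 3 lower ones were Ttk, Ska1 and Knstrn, named after their values were seen. Spc25, a subunit of the Ndc80 complex that grips microtubules, was at 1.13, 3.42 and 2.87. For condensin and cohesin, 3 of 13 genes were at least 2-fold higher, Smc2, Ncapg and Ncaph, or 23.1%. In the other comparison 0 were at least 2-fold lower, and the medians were 0.37 and -0.16. Smc2, the core of condensin, was at 2.02, 4.91 and 4.08, while Ncapg and Ncaph were named after their values were seen.

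Lists of genes that act before mitosis or through protein destruction had at most 1 gene each past 2-fold in these directions. Of 31 genes of origin licensing and the replication fork, 1 (3.23%) was at least 2-fold higher in Scd2f/f TAL than in control. That gene was Chaf1a, a histone chaperone subunit named after its value was seen. In CC TAL, 0 were at least 2-fold lower than in Scd2f/f TAL, although 14 had a lower mean. The medians were 0.23 and 0.02. Of 14 genes of the anaphase-promoting complex and its substrates, 1 (7.14%) was at least 2-fold higher and 1 at least 2-fold lower, Ube2c in both cases. The medians were 0.04 and -0.03. Ube2c, the ubiquitin-conjugating enzyme of this complex, was at 0.311, 0.723 and 0.291 and was named after its values were seen. Of 14 genes for E2F proteins and subunits of the DREAM and MuvB complexes, none was at least 2-fold higher in Scd2f/f TAL than in control. None of them was at least 2-fold lower in CC TAL than in Scd2f/f TAL. The medians were -0.18 and 0.02. The 1 gene at least 2-fold lower in Scd2f/f TAL than in control was E2f7, a repressor of S phase genes, named after its value was seen.

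Some inhibitors of the cycle were also higher in Scd2f/f TAL. Of 17 CDK inhibitors and other brakes on G1 or on Cdk1, 4 were at least 2-fold higher in Scd2f/f TAL than in control, or 23.5% beside 9.37% of all genes (median log2 ratio 0.71). At least 2-fold lower in CC TAL than in Scd2f/f TAL were 2, or 11.8% beside 4.07% (median -0.43). Cdkn1a, which encodes the CDK inhibitor p21, had a mean of 0.464 in control, 4.33 in Scd2f/f TAL and 1.80 in CC TAL. Its order of groups was that of the mitotic genes, with log2 ratios of 3.22 and -1.27. Btg2, an antiproliferative gene, was at 5.04, 10.4 and 5.24, and its relative Btg1 at 14.9, 30.5 and 34.5. Cdkn2c, which encodes the p18 inhibitor of Cdk4 and Cdk6, was at 1.33, 2.33 and 1.33. Pkmyt1, a kinase that restrains Cdk1 and the other of the 4 and of the 2, was named after its values were seen, at 0.0969, 0.373 and 0.167.

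**Figure D4:**
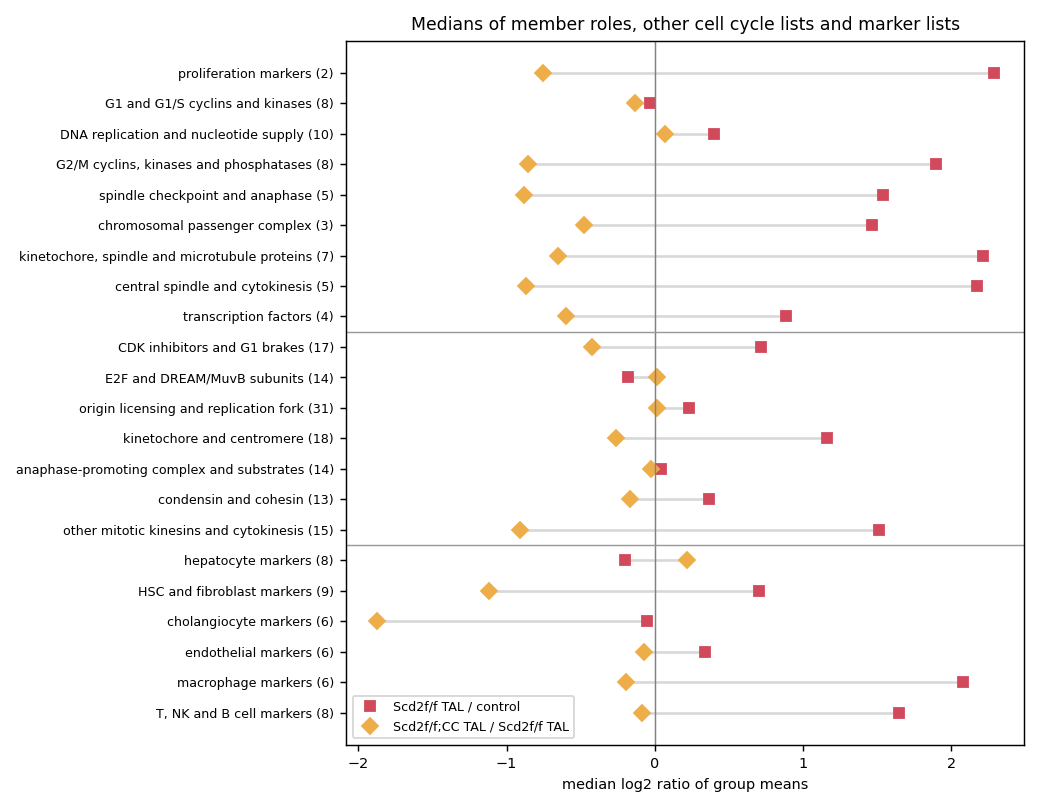
Median log2 ratio of group means for the 9 roles of the 52 genes (top), 7 other cell cycle lists (middle) and 6 lists of cell type markers (bottom), with the number of genes in parentheses. Squares show Scd2f/f TAL over control and diamonds CC TAL over Scd2f/f TAL. Mitotic kinesins stood at 1.51 and -0.91, near the mitotic roles, and the E2F and DREAM list at -0.18 and 0.02.

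Promoters of the genes were read because mitotic genes are known to share the cell cycle genes homology region (CHR), a short element bound by DREAM and MuvB, often next to CCAAT boxes bound by NF-Y, while genes of S phase are known for E2F sites. RefSeq windows on GRCm38.p6, from 250 bases before the start site to 50 after it, were given for 40 of the 52 genes. The letters searched on both strands were TTTGAA for the CHR, CCAAT for the CCAAT box, and TTTCCCGC, TTTGGCGC or TTTCGCGC for E2F, and matches may overlap. The 150 bases before the start site are shown for Mki67, Top2a, Cdk1 and Cdc20, which hold the CHR letters there. They are also shown for Mcm6, which holds E2F letters without the CHR. In this order, the log2 ratios for Scd2f/f TAL over control were 2.56, 2.01, 1.62, 2.10 and 0.43. For CC TAL over Scd2f/f TAL they were -0.78, -0.74, -0.86, -0.96 and -0.05. These are chosen examples. Genes not shown also hold CHR letters there, such as Kif11, Kif2c and Mcm2. Their log2 ratios were 1.48, 2.93 and 0.30 for Scd2f/f TAL over control, and -0.31, -0.36 and 0.19 for CC TAL over Scd2f/f TAL. Each printed window is written from 5′ to 3′ on the strand of the gene, and capitals mark the CHR (TTTGAA, or TTCAAA from the other strand), CCAAT (or ATTGG) and E2F letters. The windows are chr7:135716380-135716529 on the minus strand for Mki67, chr11:99024190-99024339 on the minus strand for Top2a, chr10:69352913-69353062 on the minus strand for Cdk1, chr4:118437344-118437493 on the minus strand for Cdc20, and chr1:128359706-128359855 on the minus strand for Mcm6.
Mki67: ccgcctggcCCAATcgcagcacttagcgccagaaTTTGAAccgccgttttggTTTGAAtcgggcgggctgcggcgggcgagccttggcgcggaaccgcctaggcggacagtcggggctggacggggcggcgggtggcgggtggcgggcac
Top2a: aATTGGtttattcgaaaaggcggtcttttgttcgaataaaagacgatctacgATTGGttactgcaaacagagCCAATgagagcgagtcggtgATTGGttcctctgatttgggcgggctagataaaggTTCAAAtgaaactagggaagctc
Cdk1: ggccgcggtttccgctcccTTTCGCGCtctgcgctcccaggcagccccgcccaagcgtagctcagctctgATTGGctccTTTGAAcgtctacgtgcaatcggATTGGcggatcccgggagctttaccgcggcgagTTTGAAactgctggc
Cdc20: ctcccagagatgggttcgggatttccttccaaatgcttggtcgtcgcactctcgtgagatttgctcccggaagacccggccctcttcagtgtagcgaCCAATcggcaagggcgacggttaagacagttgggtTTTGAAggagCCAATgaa
Mcm6: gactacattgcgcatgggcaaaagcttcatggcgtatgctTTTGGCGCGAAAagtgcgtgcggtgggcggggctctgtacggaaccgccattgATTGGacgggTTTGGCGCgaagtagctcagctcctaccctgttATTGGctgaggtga

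In the printed windows, Mki67 holds the CHR letters at 116 and 98 bases before the start, Top2a at 23, Cdk1 at 71 and 15, and Cdc20 at 18. Cdk1 holds E2F letters as well, starting 131 bases before the start site. In Mcm6, E2F letters start at 110, 106 and 47 bases before the start, of which the first pair overlaps. Of the 22 genes of the mitotic roles with a window, 15 held the CHR letters, or 68.2%, and 18 held CCAAT, or 81.8%. Among all 27025 genes with a RefSeq window, 20.2% held the CHR letters and 41.1% held CCAAT, and both were in 7.97% of all genes and in 63.6% of the mitotic ones. All 4 cytokinesis genes with a window held both. Of the 9 replication genes with a window, Mcm2 alone held the CHR letters (11.1%), and 4 held E2F letters (44.4%), beside 2.12% of all genes. Among the 10931 genes of the expression table with a window, 15.3% held the CHR letters, 42.9% CCAAT, 6.2% both and 3.74% E2F letters. None of the 5 G1 genes with a window held the CHR letters.

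Letters known for other pathways were searched in the same way, GGAATG for TEAD and CTTTGAT for TCF. TEAD letters were in 12.5% of the 40 genes and in 16.6% of all genes, and TCF letters in 5.0% and 4.29%. Among genes of the expression table with a window, these shares were 14.9% for TEAD and 3.17% for TCF. The TCF letters overlap the CHR letters in part, but neither contains the other. The 18 of the 40 genes with the CHR letters had a median log2 ratio of 1.90 for Scd2f/f TAL over control, and the 22 without them 0.40. For CC TAL over Scd2f/f TAL these medians were -0.81 and -0.11. Among the 22 without them were Bub1, Ccnb1 and Cenpe, with log2 ratios of 2.26, 2.19 and 2.64 for Scd2f/f TAL over control. For CC TAL over Scd2f/f TAL these genes had log2 ratios of -1.51, -1.45 and -0.84. Across all genes of the table with a window, the medians with and without the CHR letters were 0.09 and 0.05 for the first comparison and -0.01 and -0.01 for the second. The medians with and without the letters were thus apart among these 40 genes, where 15 of the 18 holders belong to mitosis, and close together across all genes. The 12 genes with no window, Ccna2, Kif20a and Foxm1 among them, are not part of this comparison. A match is a stretch of letters and does not show that a factor binds there.

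**Figure D5:**
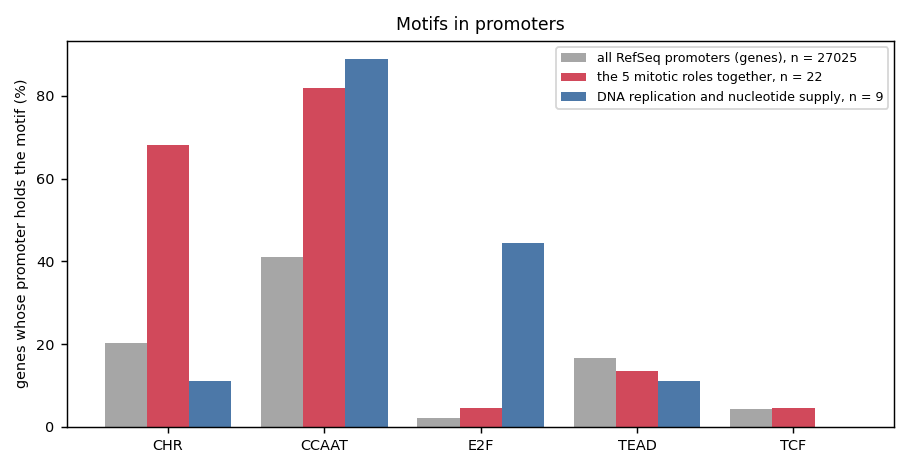
Share of genes (%, from 0) whose RefSeq promoter window holds each set of letters, for all genes with a window (gray), the 22 mitotic genes with a window (red) and the 9 replication genes with a window (blue). CHR letters were in 68.2% of the mitotic genes and 20.2% of all genes, and E2F letters in 44.4% of the replication genes.

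Markers of several cell types differed between the groups alongside these genes. All 8 hepatocyte markers were expressed, with a lowest mean of 181, so the tissue is liver by its markers. Their summed means were 37460 in control, 34610 in Scd2f/f TAL and 39278 in CC TAL. Most of each sum was Alb, at 21300, 20900 and 22700. Of the 8, 6 had a lower mean in Scd2f/f TAL than in control. At least 2-fold lower was 1, Tat, at 499 and 181, beside 4.69% of all genes. The counts of markers are to be read beside the same shares, 9.37% and 4.07% of all genes, or 16.4% and 10.1% of genes with means under 1. Of 9 markers of HSC and fibroblasts, 2 of them with means under 1, 4 were at least 2-fold higher in Scd2f/f TAL than in control. At least 2-fold lower in CC TAL than in Scd2f/f TAL were 6, and the sums were 58.8, 136 and 57.4. Most of the sum in Scd2f/f TAL came from Col1a1, Col1a2 and Col3a1, at 19.6, 21.7 and 58.6 there. Lrat was at 15.0, 19.0 and 16.0. The 2 markers with a lower mean in Scd2f/f TAL than in control were Des (4.25, 3.29 and 1.98) and Acta2 (1.27, 1.20 and 0.388). Of 6 cholangiocyte markers, 3 of them with means under 1, 1 was at least 2-fold higher and 5 at least 2-fold lower in these comparisons. Their sums were 59.0, 53.9 and 19.2, most of it from 1 gene, Spp1, at 52.3, 45.1 and 14.8. All 6 macrophage markers were at least 2-fold higher in Scd2f/f TAL than in control. None was at least 2-fold lower in CC TAL than in Scd2f/f TAL, though 5 of the 6 had a lower mean in CC TAL. Their sums were 75.4, 288 and 258. Of 8 markers of T, NK and B cells, all with means under 1, 6 were at least 2-fold higher and 2 at least 2-fold lower in these comparisons. Their sums were 1.71, 5.29 and 3.67. Of 6 endothelial markers, 2 were at least 2-fold higher and 0 at least 2-fold lower, with sums of 95.9, 128 and 130. No marker was at 0 in any group, and the lowest mean was 0.0892, of a cholangiocyte marker. The 28 mitotic genes had sums of 11.0, 34.8 and 20.9. In which cells the mitotic genes were expressed, and the part of these other cell types in their means, was not tested.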

How the data were processed

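Total RNA was isolated by the authors with the PicoPure kit, and polyadenylated RNA was selected and made into libraries with TruSeq RNA v2 reagents and run on a NextSeq instrument. Per the submitters' processing notes and the study's methods, reads were aligned with STAR 2.6.1 to mm10, quantified with the Partek E/M method (Partek 6) on Gencode M3, and normalized to the upper quartile. The deposited values used here are a signal, the least-squares mean of the normalized counts in a group. The deposited table also holds 8 columns of the authors' own comparisons (p-value, false discovery rate, ratio and fold change), which were not used. The mean of Scd2f/f TAL is given once for each comparison, with identical values. The depth of the libraries is unknown, and the scale of averaging and the filter on genes are not given in the sources used here.

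Ratios of group means were taken per gene with no pseudocount, for 3 comparisons, and a ratio of at least 2 or at most 0.5 was counted. Counts of the 52 genes and of the lists were set beside the share of all 16755 genes, or of those with means under 1. The 52 genes and all lists were chosen with earlier results of these data known. Beyond the 52 genes, the genes named are Scd2 and, per list, up to 3 with the largest absolute log2 ratio in a comparison among genes with a mean over the 3 groups of at least 1. Other names were chosen after their values were seen. The list symbols Sgo1 and Sgo2a were matched as Sgol1 and Sgol2a. Orc1 and Kif10 were not found, and Kif10 is another name of Cenpe, which is among the 52 genes. Coordinates, exon lengths and overlaps are from GENCODE M21 on GRCm38, where all 52 genes overlapped the gene of their name. Promoter windows are from RefSeq on GRCm38.p6. The alternatives were a filter on the mean, pseudocounts of 0.1 and 1, centring of log2 ratios on the median gene (mean of 1 or more), a limit of 1.5-fold, and leaving out the G1 genes. The ratio and counting steps were run on simulated group means with planted changes and no noise. That run checks the code only, and does not show how spread between mice would move the counts. Scripts ran in Python 3.11.15 (NumPy 2.4.6, pandas 2.3.3, Matplotlib 3.10.9).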

Additional observations from a re-analysis of the deposited data

How the results depend on the processing

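No median of the 52 genes changed sign under the alternatives, and 24 of the 45 values obtained stayed within 1.5 times the count or within 0.1 of the median reported above. The other 21 moved further. All 9 values after centring are among the 24, but centring shifted log2 ratios by only 0.0278, 0.0059 and 0.0433. Its medians therefore could not move by 0.1. The count of genes higher in CC TAL than in Scd2f/f TAL by at least the fold limit stayed at 0 throughout and is also among the 24. With genes of a mean of at least 1 alone, Scd2f/f TAL had 8 genes at least 2-fold higher than control and a median log2 ratio of 0.44. CC TAL then had 1 gene at least 2-fold lower than in Scd2f/f TAL and a median of -0.091. Against control it had 6 at least 2-fold higher and a median of 0.42. A pseudocount of 0.1 gave medians of 1.01 and 0.60 against control for Scd2f/f TAL and CC TAL, and 5 genes (9.62%, beside 2.27%) lower in CC TAL than in Scd2f/f TAL. A pseudocount of 1, which shrinks ratios of genes with means under 1, gave 7 genes higher and 1 lower in Scd2f/f TAL than in control, with a median of 0.44. It gave 0 genes at least 2-fold lower in CC TAL than in Scd2f/f TAL, with a median of -0.19. At the same limit, 1 was higher and 1 lower in CC TAL than in control, with a median of 0.28. At a limit of 1.5-fold, 22 genes (42.3%, beside 9.82% of all genes) were lower in CC TAL than in Scd2f/f TAL and 31 (59.6%, beside 14.9%) were higher in it than in control. Without the G1 genes, the medians against control were 1.48 for Scd2f/f TAL and 0.93 for CC TAL. The counts of genes past 2-fold in CC TAL against Scd2f/f TAL thus rest on genes with low means. No paired analysis was possible because only group means were used, and for the same reason no mouse could be left out.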
